A study of Mus musculus with 12 samples.

Results

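The genes described here are 37 glutamate receptor and auxiliary subunit genes, found by symbol among the 43629 genes counted in mouse cortical neuronal cultures. They comprise 4 AMPA, 1 delta, 5 kainate and 7 NMDA receptor subunit genes, 7 metabotropic receptor genes, 6 TARP genes, 2 cornichon genes, 2 Neto genes and 3 Shisa genes. RNA was sequenced after poly(A) enrichment from 6 cultures labelled IFNG, which were under lasting exposure to interferon-gamma from a lentivirus that overexpresses Ifng, and from 6 labelled Control. The lentivirus was added at day 7 in vitro and cells were harvested 10 days later. All 12 samples carry the same treatment text, so the labels do not say what the Control cultures received. Nor do they name the promoter of the construct, the cells it entered, the mouse strain or whether replicates were separate cultures, so p-values here reflect how much these samples vary, and that variation may be technical only.

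Glutamate is the main excitatory transmitter of the cortex. AMPA, kainate and NMDA receptors are ion channels built of several subunits, delta receptors are related proteins that bind synaptic organisers, and metabotropic receptors act through G proteins. Auxiliary subunits bind the channels and set their delivery to the surface, their synaptic anchoring and their gating: TARPs, cornichons and Shisa proteins act on AMPA receptors and Neto proteins on kainate receptors.

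Library totals ran from 14408343 to 20299507 counts in Control and from 13875435 to 34239380 in IFNG. Ifng itself stood at 4.98 to 17.9 CPM (a gene's counts relative to the library total, with totals scaled by the TMM method, which aligns the bulk of genes between libraries) in IFNG and at most 0.170 CPM in Control, so all labels matched. The cultures held pan-neuronal genes at a summed 8756 to 9565 CPM in Control and 6862 to 8331 CPM in IFNG. Of these 20 genes 10 fell and 10 did not pass, among them Nefm and Nefh with log2 fold changes of 0.20 and 0.30. The 20 astrocyte markers summed to 3566 to 3877 CPM in Control and 6239 to 9516 CPM in IFNG, and 17 of their 18 tested genes rose. The 2 untested ones were near 0: Gjb6 had 12 counts in all and was at 0 in every IFNG library, and S100b had 110 counts and was at 0 in Control 4. Microglial markers (16 genes) summed to 34.0 to 41.8 and 44.2 to 58.4 CPM. Some libraries stood apart in the receptor genes. Control 4 was the lowest Control library in 18 of the 36 tested members. Its median difference from the other Control libraries was -0.23 over the members, against 0.01 in Control 5 and -0.05 in Control 6. In some members Control 5 and Control 6 lay close to Control 4. Shisa6 held 24.4, 24.5 and 26.2 CPM in Control 4, 5 and 6, against 39, 35.1 and 34.1 CPM in Control 1, 2 and 3. Leaving out Control 4 alone does not remove such a difference. IFNG 5 was the lowest IFNG library in 18 and the highest in 7. In IFNG 5 the difference from the other IFNG libraries ran against exon length, with a Pearson correlation of -0.55 over 36 members and -0.26 over 15149 genes. The other libraries ran from -0.49 (Control 6) to 0.42 (Control 3) over the members and from -0.10 to 0.13 over all genes. The points of each value share a library, so this is a description.

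In IFNG cultures, 12 of the tested receptor and auxiliary genes were modestly lower, and the level of Gria1 relative to Gria2 was higher. Of 36 members with enough counts to be tested, 12 fell, 1 rose and 23 did not pass (edgeR's quasi-likelihood test, Benjamini-Hochberg adjusted p under 0.05 over 15241 genes). Over all genes tested, 9.79% were lower and 14.3% higher. Those that fell were Gria2, Grik4, Grin2d, Grm2, Grm3, Grm4, Cacng2, Cacng3, Cacng4, Cnih3, Shisa7 and Shisa9, and Shisa6 rose. The median log2 fold change of the members was -0.19, against -0.02 over all genes and -0.29 over the 20 pan-neuronal genes. In 5 members, Grik4, Grm2, Cacng2, Cnih3 and Shisa9, every IFNG library lay below every Control library, which 4.09% of all tested genes did. In 0 members did every IFNG library lie above every Control library, which 8.75% of all genes did. Among receptor genes 6 of 23 fell, and among auxiliary subunit genes 6 of 13 fell and 1 rose; the difference between these was not tested. In bulk RNA, fewer neurons and less RNA per neuron cannot be told apart, and the part of the higher astrocyte markers in these values was not tested.

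**Figure D1:**
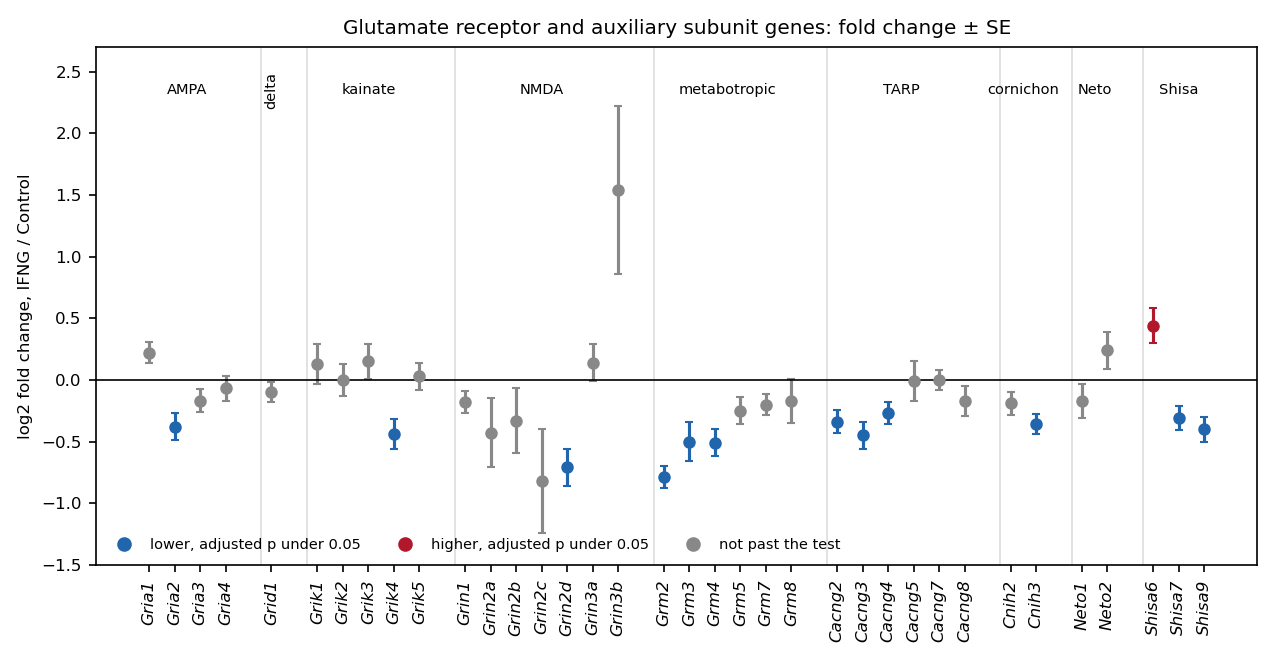
Log2 fold change of IFNG over Control (vertical axis) with its standard error for the 36 tested members, grouped by class along the horizontal axis and coloured by the edgeR call under TMM scaling. The 12 lower genes lie between -0.27 and -0.79; under scaling to pan-neuronal genes Cacng4, at -0.27 here, stood at 0.04.

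The members were also set against the level of neuronal genes as a group, by scaling each library to its summed counts of 20 pan-neuronal genes, none of them a member. This scaling moved the median of all genes from -0.02 to 0.29. Grm2 was then the only member called lower, at -0.48 (adjusted p = 0.00101), where 1.83% of all genes were lower. Another 8 members were higher, Gria1, Grik3, Grik5, Grin3a, Grin3b, Cacng7, Neto2 and Shisa6, where 37.5% of all genes were higher. The members' median was 0.12, below the 0.29 of all genes and above the 0.00 of the pan-neuronal genes, on which this scaling rests. Another scaling took the genes called higher in the main test, but not those called lower, out of the totals. This shifts fold changes up by construction, and the median of all genes moved to 0.10. With risen genes taken out, 6 members stayed lower (Grm2, Grin2d, Grm4, Cacng3, Cnih3 and Shisa9), where 4.92% of genes were lower. Gria1 and Shisa6 were higher, where 19.4% were.

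The members called under the remaining settings follow, each with the share of all genes called. With DESeq2 size factors 12 members were lower and 1 higher (9.81% and 14.3% of genes), and with the replicate block 12 and 1 (10.3% and 13.9%). On plain library totals 13 were lower, with Grm7 added, and 0 higher (12.2% and 12.9%). With no filter 10 were lower, without Cacng4 and Shisa7, and 1 higher (4.25% and 8.3%). Gria1 joined Shisa6 among the higher members, with 12 lower, under a filter of 1 CPM in 6 libraries (9.95% lower and 15.5% higher of all genes), in DESeq2 (9.67% and 13.7%) and in limma-voom (10.6% and 14.4%). Tested against a fold of 1.2 instead of no change, Grin2d, Grm2 and Grm4 were lower and 0 members higher (3.01% and 9.8%). Without both Control 4 and IFNG 5, 12 were lower, with Grm3 lost and Grin1 gained, and Gria1, Neto2 and Shisa6 were higher (9.3% and 14.5%).

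Summed over its genes, the AMPA class went from 1565 ± 87.9 to 1401 ± 177 CPM, the NMDA class from 973 ± 216 to 819 ± 138 CPM and the metabotropic class from 540 ± 25.5 to 428 ± 46.9 CPM. The kainate class went from 571 ± 71.8 to 593 ± 31.3 CPM. Among auxiliary classes, TARPs went from 550 ± 17.4 to 474 ± 24.2 CPM and cornichons from 338 ± 24.1 to 284 ± 20.5 CPM, Shisa genes from 374 ± 49.1 to 311 ± 36 CPM and Neto genes from 254 ± 41.3 to 281 ± 60.6 CPM (mean ± SD of 6 libraries a group). These sums lean on the longest and most abundant genes of each class and were not tested. The metabotropic and TARP sums of the groups did not overlap, at 510 to 574 against 340 to 466 CPM and at 518 to 568 against 444 to 509 CPM, while kainate sums ran from 440 to 633 and from 547 to 629 CPM.

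**Figure D2:**
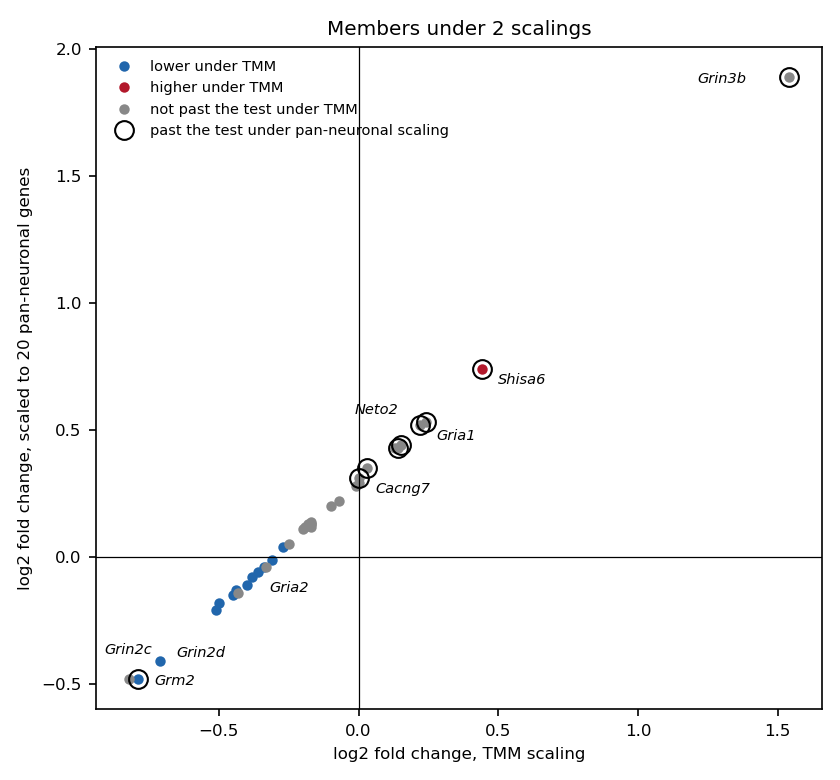
Log2 fold change of each tested member under TMM scaling (horizontal axis) and under scaling to 20 pan-neuronal genes (vertical axis), with open rings round members past the test under the latter. All points shift up together, Grm2 is the lower gene that keeps a ring (-0.48), and Gria2 moves from -0.38 to -0.08.

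AMPA receptors carry most fast excitatory transmission, and Gria2 was the subunit gene that fell. Gria2 encodes the subunit that, once its RNA is edited, makes the channel nearly impermeable to calcium (GRCm38 chromosome 3, 80681450 to 80802835, minus strand). Control libraries 1 to 6 held 960, 878, 969, 1056, 1003 and 849 CPM of Gria2, and IFNG libraries 1 to 6 held 870, 661, 789, 841, 513 and 724 CPM. Only IFNG 1 lay within the Control range, and IFNG 5 was the lowest. Gria2 fell by 0.38 on the log2 scale (SE 0.11, adjusted p = 0.0172). Without IFNG 2 the log2 fold change was -0.34 and did not pass (adjusted p = 0.0543). Without IFNG 5 it shrank to -0.28 (adjusted p = 0.0248) and without both Control 4 and IFNG 5 to -0.25 (adjusted p = 0.0453), both past the test.

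Gria1, whose subunit is brought to synapses during plasticity (chromosome 11, 57011387 to 57330244, plus strand), had a fold change of the other sign that did not pass. It stood at 462, 445, 471, 369, 407 and 383 CPM in Control libraries 1 to 6 and at 515, 476, 480, 540, 458 and 493 CPM in IFNG libraries 1 to 6. Control 1 and Control 3 lay above IFNG 5, and the other IFNG libraries were all above every Control library. Its log2 fold change was 0.22 (SE 0.085, adjusted p = 0.0617). It passed in DESeq2 (0.0396), in limma-voom (0.0454), with a filter of 1 CPM in 6 libraries (0.0473) without IFNG 5 (0.0278) and without both Control 4 and IFNG 5 (0.0444). Under pan-neuronal scaling it stood at 0.52 (adjusted p = 0.000282). The other subunits did not pass: Gria3 stood at 108 ± 5.18 and 96.1 ± 13.0 CPM and Gria4 at 82.1 ± 7.51 and 78.0 ± 11.2 CPM in Control and IFNG (SD, n = 6 each).

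The ratio of Gria1 to Gria2 counts within a library needs no scaling between libraries. Its log2 value was -1.06, -0.98, -1.04, -1.52, -1.30 and -1.15 in Control libraries 1 to 6 and -0.76, -0.47, -0.72, -0.64, -0.16 and -0.55 in IFNG libraries 1 to 6. All IFNG libraries were above all Control libraries. The group means differed by 0.62 on the log2 scale, or 1.54-fold (exact two-sided permutation test over all arrangements of the labels, p = 0.00216, the smallest it can give; Benjamini-Hochberg adjusted over 7 ratios, 0.0152). The pairs came from members chosen with earlier results of these data known, and other pairs of genes were not run for comparison. The p-values of the ratios are thus descriptions. Without IFNG 5, the highest, the difference was 0.55 (adjusted p = 0.0152). Without both Control 4 and IFNG 5 it was 0.48, again at the smallest p that design allows (0.00794, adjusted 0.0556). Per kilobase of exon, Gria1 made up 45.1 ± 3.13% of the AMPA subunit signal in Control and 54.4 ± 3.22% in IFNG, and Gria2 39.5 ± 2.77% and 31.0 ± 2.77% (SD, n = 6 each). The exon length of Gria2, 15548 bases against 6043 for Gria1, is that of all annotated exons joined and includes long untranslated ends, so per-length levels depend on the annotation.

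The same test on 6 other pairs of related members passed for Neto2 over Neto1 alone. Neto2 and Neto1 encode the kainate receptor auxiliary subunits. The log2 ratio rose by 0.43, from 1.56 ± 0.28 in Control to 1.99 ± 0.05 in IFNG (SD, n = 6 each; exact permutation p = 0.00433, adjusted 0.0152). IFNG libraries lay between 1.93 and 2.05 and Control libraries between 1.23 and 1.93. The call was lost without IFNG 1, IFNG 4 or IFNG 5 (adjusted p = 0.053, 0.0606 and 0.0606, with differences of 0.43, 0.42 and 0.42), and without both Control 4 and IFNG 5 (0.0556, with a difference of 0.47). Neto2 on its own stood at a log2 fold change of 0.24 (SE 0.15, adjusted p = 0.267) and Neto1 at -0.17 (SE 0.14, adjusted p = 0.394). Grin2a over Grin2b, a ratio that is known to rise as cortical neurons mature, differed by -0.05 on the log2 scale (exact permutation p = 0.794). Control libraries ran from -5.98 to -4.99 and IFNG libraries from -6.02 to -5.17. The other differences were -0.04 for Grik2 over Grik5, 0.28 for Grm3 over Grm2, 0.19 for Cacng8 over Cacng2 and -0.17 for Cnih3 over Cnih2 (adjusted p = 0.883, 0.201, 0.255 and 0.201, exact permutation tests). A p that misses the threshold does not show that these ratios were equal.

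**Figure D3:**
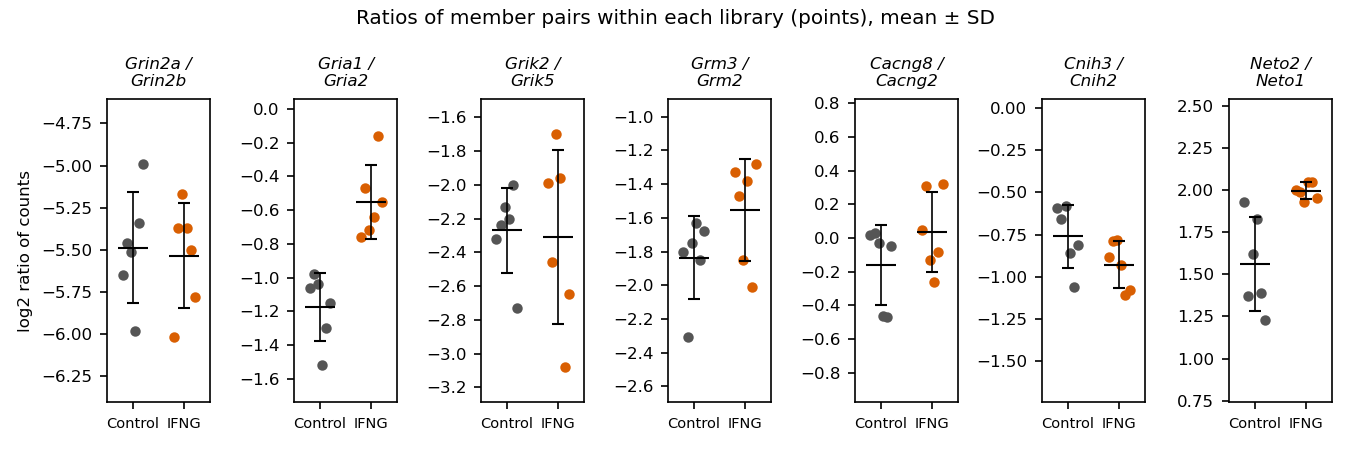
Log2 ratio of counts of 7 member pairs in each library (points) with mean ± SD, Control in grey and IFNG in orange; each vertical axis spans the same range of log2 units. Gria1 over Gria2 is the pair whose groups are clearly separated (-1.52 to -0.98 against -0.76 to -0.16), and IFNG libraries are tightly grouped for Neto2 over Neto1.

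Metabotropic receptors held the largest fall among the members that passed. Grm2 encodes a group II receptor, which lowers cyclic AMP and damps transmitter release (chromosome 9, 106643095 to 106656082, minus strand). Control libraries 1 to 6 held 70.4, 65.0, 69.2, 59.2, 77.0 and 66.3 CPM, and IFNG libraries 1 to 6 held 39.7, 40.8, 38.0, 35.7, 37.8 and 42.8 CPM. The groups did not overlap, and the IFNG libraries were close to each other. Grm2 fell by 0.79 on the log2 scale (SE 0.089, adjusted p = 9.85e-07). It was called lower in every alternative run, with adjusted p at most 0.00101. An antisense gene, Gm28111, shares 9.6% of the exon bases of Grm2 on the opposite strand and held 126 counts over the 12 libraries, against 12201 for Grm2.

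Grm3, the other group II gene, is known in astrocytes as well as neurons. Its Control libraries had a lowest value of 13.1, a median of 20.4 and a highest of 21.3 CPM, and its IFNG libraries 9.37, 14.2 and 17.6 CPM. The ranges overlap through Control 2, the lowest of its group. Grm3 fell by 0.50 (SE 0.16, adjusted p = 0.0299), in libraries where the summed astrocyte markers were 2.2 times the Control level; their part in the Grm3 value was not tested. The call rested on single libraries: dropping Control 1, 3, 5 or 6, or else IFNG 3 or 5, brought the adjusted p to between 0.0559 and 0.067, with log2 fold changes from -0.48 to -0.40. Dropping both Control 4 and IFNG 5 brought it to 0.0761, at -0.40.

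Group III receptors also lower cyclic AMP, mostly at axon terminals. Of these, Grm4 had lowest, median and highest values of 52.1, 63.8 and 81.1 CPM in Control and 40.6, 45.8 and 53.1 CPM in IFNG. Only IFNG 1 reached into the Control range, and Grm4 fell by 0.51 (SE 0.11, adjusted p = 0.00163). Grm7 went from 86.5 ± 5.63 to 75.6 ± 5.80 CPM (adjusted p = 0.0937) and Grm8 from 9.43 ± 2.23 to 8.37 ± 1.42 CPM (adjusted p = 0.536; mean ± SD of 6 libraries a group). Grm6, known from retinal bipolar cells, had 0 counts in every library, which allows up to 0.0282 CPM over the Control and 0.0238 CPM over the IFNG libraries. Grm5, the group I gene here, signals through calcium release and was the most abundant of the class per kilobase (28.5 and 24.0 CPM per kilobase). Its Control libraries ran from 268 through a median of 290 to 324 CPM and its IFNG libraries from 163 through 264 to 277 CPM, with a log2 fold change of -0.25 (SE 0.11, adjusted p = 0.113). IFNG 5 set the low end.

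The upstream sequences of Grm2, the member with the smallest adjusted p, and Gria2, the most abundant per kilobase of those that fell, are shown with the motif letters found in them. Of the 37 members, 24 had a promoter entry in RefSeq (GRCm38.p6), with 29 start sites. The 250 bases before each start were searched on both strands for 4 motifs chosen after the expression values were known. They were the core of the interferon response element ISRE, the left and right parts of RE1 (TTCAGCACC and GGACAGC), the element bound by REST, a repressor of neuronal genes in other cells, and the cyclic AMP element CRE (TGACGTCA). CRE was in 0 of the 29 windows and in 1.55% of 32851 windows of all genes. The ISRE core was in 1 window, of Grm8, and in 2.98% of all windows. The left part of RE1 was in the Grm2 window and in 0.301% of all windows, and the right part in the Grm2 and Gria2 windows and in 5.28% of all. Both parts were present in the window of Grm2 and in 5 of the 32851, that of Grm2 included. This count set no condition on their order, spacing or strand, so it is not a count of whole RE1 elements. In Grm2 they lay 242 to 234 and 226 to 220 bases before the start. Capitals mark the matched letters, and the Gria2 match is the reverse complement. The windows are chr9:106656110-106656359 and chr3:80802836-80803085, both on the minus strand.
Grm2: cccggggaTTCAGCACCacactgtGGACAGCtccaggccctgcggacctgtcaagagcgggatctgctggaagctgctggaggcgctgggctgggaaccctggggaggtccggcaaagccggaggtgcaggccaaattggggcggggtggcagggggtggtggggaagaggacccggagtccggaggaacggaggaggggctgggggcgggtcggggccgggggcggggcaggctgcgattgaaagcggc
Gria2: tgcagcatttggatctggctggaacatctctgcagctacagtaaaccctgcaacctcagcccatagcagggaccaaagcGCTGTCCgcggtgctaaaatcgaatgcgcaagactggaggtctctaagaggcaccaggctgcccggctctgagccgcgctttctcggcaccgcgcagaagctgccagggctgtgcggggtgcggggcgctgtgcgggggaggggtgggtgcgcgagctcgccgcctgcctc
A match of letters is a description and not a bound site. The windows are rich in G and C, at 71.2% for Grm2 and 64.8% for Gria2, against a median of 62.0% over the member windows and 52.4% over all windows.

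NMDA receptors need coincident glutamate and depolarisation, and their subunit genes mostly did not pass. Grin2d, whose subunit gives slow currents and is known in interneurons and early development, was the exception. Its lowest, median and highest values were 23.5, 36.3 and 41.0 CPM in Control and 17.8, 19.7 and 23.8 CPM in IFNG. Control 4 and Control 5 were the low Control libraries, only IFNG 2 reached into the Control range, and Grin2d fell by 0.71 (SE 0.15, adjusted p = 0.00111). Under pan-neuronal scaling it stood at -0.41 (adjusted p = 0.058). The antisense gene Gm45441 shares 9.7% of the exon bases of Grin2d on the opposite strand and had no row among the counts. Markers of GABAergic neurons, summed, ran from 991 to 1471 CPM in Control and from 964 to 1212 CPM in IFNG, and 6 of 14 tested fell and 1 rose; their part in the Grin2d value was not tested.

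Grin1, the obligatory subunit, ran from 378 through a median of 456 to 483 CPM in Control and from 341 through 394 to 435 CPM in IFNG, and its log2 fold change was -0.18 (SE 0.090, adjusted p = 0.167). It passed only without both Control 4 and IFNG 5 (adjusted p = 0.035). The antisense gene Grin1os shares 13.5% of its exon bases and held 1204 counts against 97166. Grin2b, the juvenile glutamate-binding subunit, varied widely between libraries of a group, from 255 to 722 CPM in Control and from 133 to 516 CPM in IFNG (log2 fold change -0.33, SE 0.26, adjusted p = 0.396). Grin2a, the adult subunit, was scarce, with means of 10.1 ± 4.21 CPM in Control and 7.48 ± 2.4 CPM in IFNG (SD over 6 libraries; adjusted p = 0.297). Grin3a, which lowers calcium entry, had means of 40.6 ± 10.3 CPM in Control and 44.6 ± 7.22 CPM in IFNG (SD over 6 libraries; adjusted p = 0.557). Grin2c and Grin3b lay near the detection limit, with 242 and 199 counts over all libraries and log2 fold changes of -0.82 (SE 0.42, adjusted p = 0.170) and 1.54 (SE 0.68, adjusted p = 0.108). Exons of Tmem259 on the opposite strand cover 32.1% of those of Grin3b and held 36764 counts, so without a known strand setting the Grin3b counts are uncertain.

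Kainate receptors adjust release and excitability. Grik4, a high-affinity subunit that works with other kainate subunits, had lowest, median and highest values of 15.9, 18.9 and 22.0 CPM in Control and 13.2, 14.3 and 14.8 CPM in IFNG. The groups did not overlap, and Grik4 fell by 0.44 (SE 0.12, adjusted p = 0.00977). The other high-affinity gene, Grik5, was the most abundant of the class per kilobase (57.6 and 58.8 CPM per kilobase). It ran from 246 through a median of 297 to 328 CPM in Control and from 245 through 305 to 381 CPM in IFNG (log2 fold change 0.03, SE 0.11, adjusted p = 0.869). The channel-forming Grik1, Grik2 and Grik3 stood at log2 fold changes of 0.13, 0.00 and 0.15 (SE 0.16, 0.13 and 0.14), and none passed (adjusted p = 0.596, 0.997 and 0.506). Grik3, the most abundant of these per kilobase, ran from 112 to 217 CPM in Control and from 135 to 226 CPM in IFNG. Under pan-neuronal scaling Grik3 and Grik5 stood at 0.44 and 0.35 (adjusted p = 0.0271 and 0.0441). The delta receptor gene Grid1 ran from 104 through 115 to 128 CPM in Control and from 103 through 104 to 114 CPM in IFNG (-0.10, SE 0.081, adjusted p = 0.390).

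**Figure D4:**
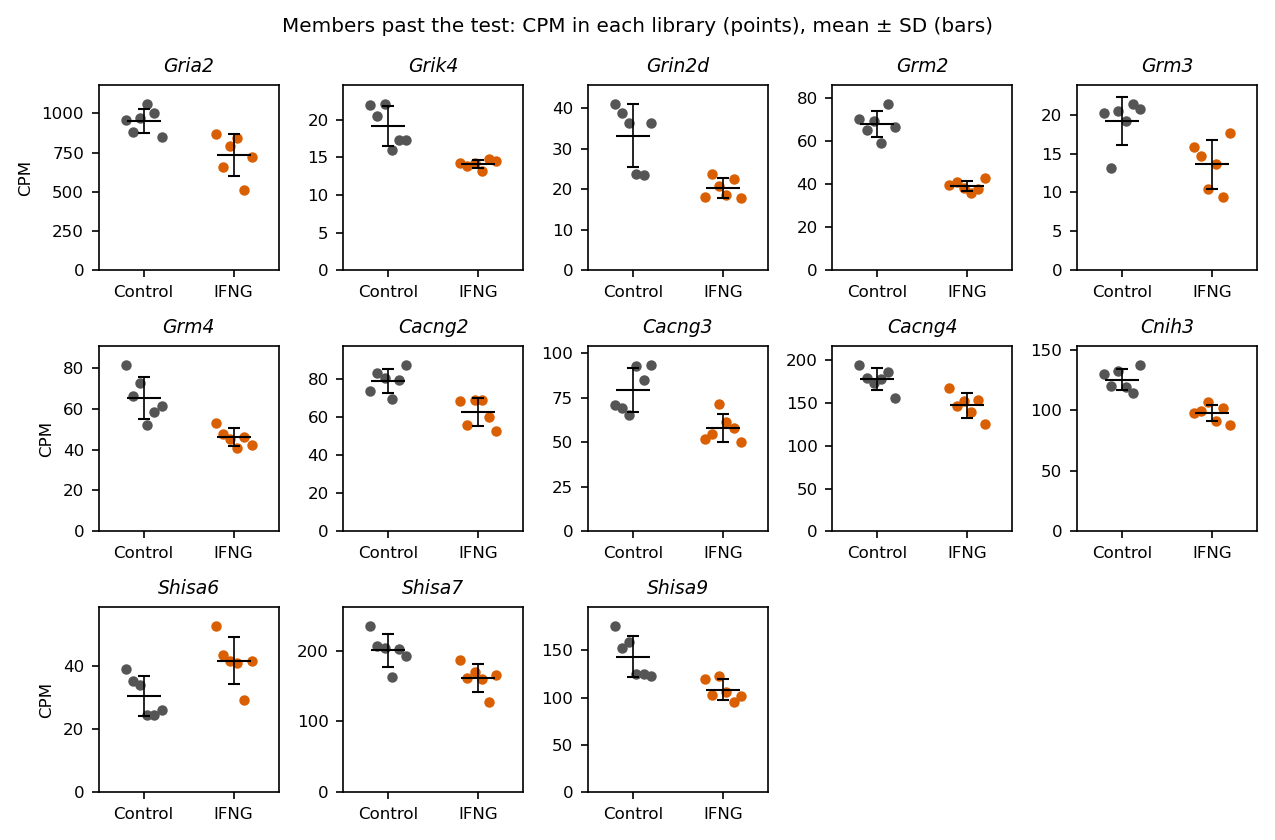
CPM in each library (points) with mean ± SD (bars) for the 13 members past the edgeR test under TMM scaling, Control in grey and IFNG in orange, each vertical axis from 0. The groups of Grik4, Grm2, Cacng2, Cnih3 and Shisa9 do not overlap, and Shisa6 is the gene that is higher.

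TARPs escort AMPA receptors to the synapse and slow their closing. Of 6 genes 3 fell. Cacng2, known as stargazin, had lowest, median and highest values of 69.3, 80.1 and 87.1 CPM in Control and 52.7, 64.4 and 69.1 CPM in IFNG. Its groups did not overlap, and it fell by 0.34 (SE 0.095, adjusted p = 0.0128). Cacng3 had 65.3, 78.0 and 93.2 CPM in Control and 50.4, 56.4 and 71.4 CPM in IFNG. One library, IFNG 3, lay within the Control range, and Cacng3 fell by 0.45 (SE 0.11, adjusted p = 0.00537). Cacng4 had 156, 178 and 194 CPM in Control and 125, 149 and 168 CPM in IFNG. It fell by 0.27 (SE 0.087, adjusted p = 0.0296), only IFNG 1 lay within the Control range, and it stood at 0.04 under pan-neuronal scaling. Dropping Control 1, 2, 4 or 5, or else IFNG 2, 4 or 6, took the adjusted p of Cacng4 to between 0.0518 and 0.0966, with log2 fold changes from -0.27 to -0.22, and with no filter it was 0.105.

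The remaining TARP genes did not pass. Cacng7, of the subgroup that acts more weakly on AMPA receptors, ran from 112 through a median of 119 to 132 CPM in Control and from 112 through 121 to 132 CPM in IFNG (log2 fold change 0.00, SE 0.080, adjusted p = 0.990). Cacng5, of the same subgroup, had means of 21.3 ± 5.56 CPM in Control and 21.2 ± 3.45 CPM in IFNG (SD over 6 libraries; adjusted p = 0.978). Cacng8, prominent in hippocampus, had 71.8 ± 14.5 CPM in Control and 64 ± 5.82 CPM in IFNG (adjusted p = 0.352). Under TMM scaling the 3 lower genes were Cacng2, Cacng3 and Cacng4, all of the subgroup to which Cacng8 also belongs; the difference between the subgroups was not tested.

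Cornichons export AMPA receptors from the endoplasmic reticulum and slow their gating. Cnih3 had lowest, median and highest values of 114, 125 and 137 CPM in Control and 88.2, 98.5 and 107 CPM in IFNG. The groups did not overlap, and Cnih3 fell by 0.36 (SE 0.082, adjusted p = 0.00266). Cnih2 was the most abundant member of all per kilobase (156 and 136 CPM per kilobase). It ran from 189 through a median of 207 to 241 CPM in Control and from 172 through 182 to 220 CPM in IFNG, with a log2 fold change of -0.19 (SE 0.091, adjusted p = 0.133). IFNG 5 was its highest IFNG library, and without it Cnih2 stood at -0.24 (adjusted p = 0.045).

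Shisa proteins are AMPA receptor partners that alter desensitisation, and all 3 member genes passed, in opposite directions. Shisa8, read here among the other AMPA receptor partners, stood at -0.81 and did not pass (SE 0.34, edgeR adjusted p = 0.0958). Shisa6 was the member that rose. Its lowest, median and highest values were 24.4, 30.1 and 39.0 CPM in Control and 29.2, 41.7 and 52.5 CPM in IFNG. Only IFNG 5 lay within the Control range, and the log2 fold change was 0.44 (SE 0.14, adjusted p = 0.0284). Dropping Control 4, 5 or 6, or else IFNG 1 or 2, took the adjusted p to between 0.0564 and 0.076, with log2 fold changes from 0.37 to 0.44, and plain library totals took it to 0.0501. Shisa9 had 123, 138 and 175 CPM in Control and 95.7, 104 and 123 CPM in IFNG; its groups did not overlap, though Control 6 and IFNG 3 lay side by side at about 123 CPM, and it fell by 0.40 (SE 0.10, adjusted p = 0.00662). Shisa7, which also binds GABA-A receptors, had 162, 203 and 234 CPM in Control and 127, 163 and 187 CPM in IFNG. It fell by 0.31 (SE 0.10, adjusted p = 0.0322), and leaving out any library but Control 4, IFNG 1 or IFNG 3 took the adjusted p to between 0.0546 and 0.0891, with log2 fold changes from -0.31 to -0.23; with no filter it was 0.0739. Per kilobase, Shisa6 made up 6.62 ± 0.589% of the signal of the 3 genes in Control and 11 ± 0.975% in IFNG (SD, n = 6 each). For Neto2, the more abundant Neto gene, Control libraries ran from 127 through a median of 200 to 228 CPM and IFNG libraries from 147 through 228 to 278 CPM.

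**Figure D5:**
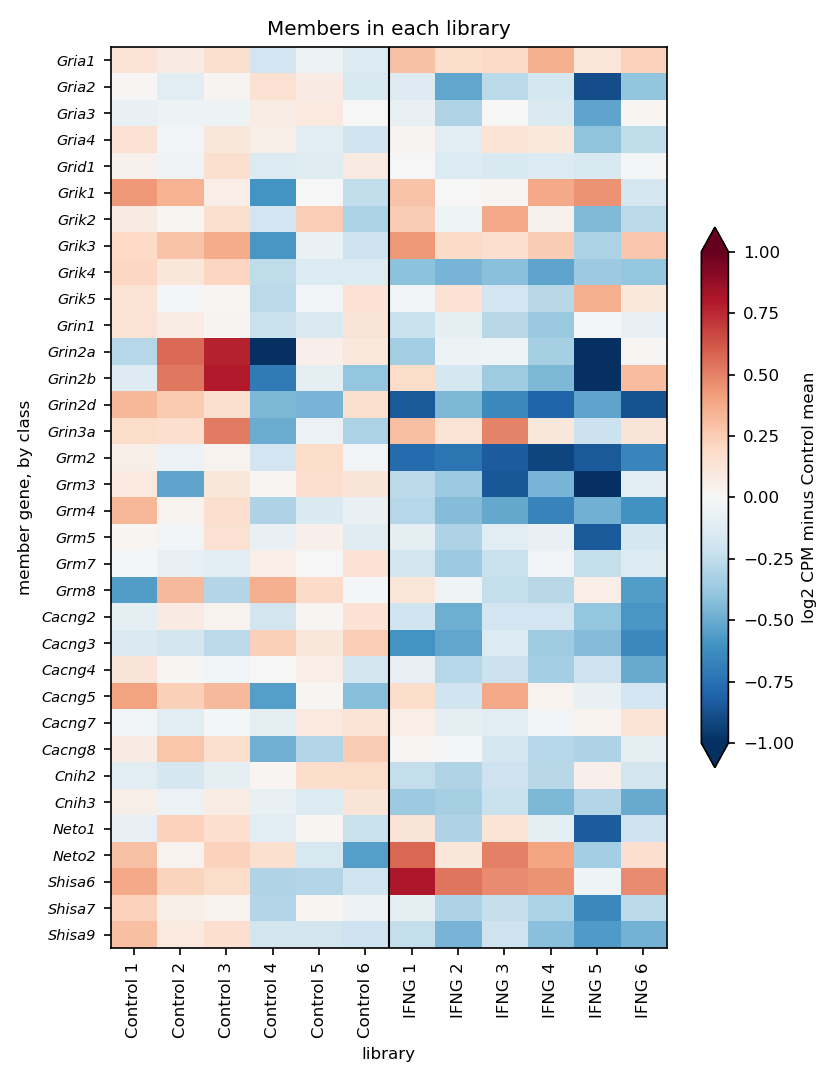
Log2 CPM of each of 34 members (rows, by class) in each library (columns) minus its Control mean, with colours limited at 1 and -1; Grin2c and Grin3b, under 5 CPM in Control, are left out. Grm2 is blue in all 6 IFNG libraries, and Control 4 and IFNG 5 differ from their groups in many rows, as in Grin2b (255 and 133 CPM).

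Other genes of the glutamate synapse were read from 5 lists of 94 genes, of which 29 fell (30.9%, against 9.79% of all genes) and 10 rose (10.6%, against 14.3%). Under pan-neuronal scaling 9 were lower and 26 higher, where 1.83% of all genes were lower and 37.5% higher. Among postsynaptic scaffolds, which anchor the receptors, 13 of 27 fell and 0 rose. Their median log2 fold change was -0.32, against -0.02 over all genes and -0.29 over the pan-neuronal genes. Homer1, which links group I receptors to calcium stores, went from 162 ± 20.3 to 94.4 ± 27.3 CPM (SD, n = 6 each; adjusted p = 0.00088), and Grip1, which binds the tail of AMPA subunits, from 61.8 ± 1.95 to 42.3 ± 5.09 CPM (adjusted p = 0.00018). Camk2a, a kinase of plasticity, did not pass, at 711 ± 56.1 and 631 ± 41.2 CPM (adjusted p = 0.138). Of 18 signalling enzymes 9 fell and 2 rose. Gnai1, a G protein subunit that group II and III receptors use, fell by 0.70 and the cyclase gene Adcy8 by 0.68 (adjusted p = 0.0001 and 3.71e-05), and Gnao1 stood at -0.21 (adjusted p = 0.0580). Of 21 synaptic organisers 5 fell and 3 rose, the latter the same share as over all genes (14.3%). Cbln4, a secreted synapse organiser, rose by 1.15 and Ephb2, a receptor that binds NMDA receptors, by 0.73 (adjusted p = 5.98e-07 and 5.17e-05), and Nptxr stood at -0.20 (adjusted p = 0.0582).

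Of 14 other AMPA receptor partners 1 fell and 0 rose (7.14% and 0%, against 9.79% and 14.3% of all genes). The share that fell was thus near that of all genes. The gene was Frrs1l, needed for receptor assembly, which fell by 0.43 (edgeR adjusted p = 0.00652). Olfm1 stood at 0.12 (adjusted p = 0.303). Of 14 genes of glutamate transport and metabolism 5 rose and 1 fell (35.7% and 7.14%, against 14.3% and 9.79% of all genes). Slc1a3, the astrocyte glutamate transporter, went from 774 ± 62.3 to 2429 ± 469 CPM and Glud1, glutamate dehydrogenase, from 165 ± 9.37 to 296 ± 31.3 CPM (SD, n = 6 each; adjusted p = 1.06e-09 and 3.01e-07). Slc1a2, Slc1a3 and Glul of that list are also among the astrocyte markers. The vesicular transporter gene Slc17a7, a marker of glutamatergic neurons, had 392 ± 63.2 CPM in Control and 406 ± 58.9 CPM in IFNG (adjusted p = 0.799).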

How the data were processed

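The deposited values are raw counts for 43629 Ensembl identifiers in 12 samples; the authors had not normalized them. The submitters' processing notes name STAR 2.4, DESeq2 and the builds GRCm39 and mm10, without saying what each was used for. The counter, strand setting and annotation behind the counts were not given in the sources used here. GENCODE M21 (GRCm38) supplied symbols for 42548 identifiers, exon lengths and coordinates; whether it served for the counting is not known. The members and lists were chosen with earlier results of these data known, and the ratios pair such members.

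IFNG and Control were compared with the quasi-likelihood F-test of edgeR 4.0.16 under R 4.3.3, after TMM scaling and filterByExpr, without a block. Benjamini-Hochberg adjustment ran over 15241 genes with a threshold of 0.05, and the script was tested on simulated data. Standard errors are the absolute log2 fold change over the square root of F. Ratios are log2 of counts plus 0.5. All members are named, and of each list the 2 genes with the smallest p past the test and the most abundant that did not pass. Shisa8 is named as well. Values are the lowest, median and highest of 6 libraries or mean ± SD, with every library given for Gria1, Gria2, Grm2 and the ratio of Gria1 to Gria2. Alternatives were 4 other scalings, 2 other filters, another pseudocount for ratios, the replicate number as a block, DESeq2 1.42.0, limma-voom (3.58.1), a test against a fold of 1.2, each library left out and, chosen after seeing the data, Control 4 and IFNG 5 left out together.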

Additional observations from a re-analysis of the deposited data

Results flagged for a closer look

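In 4 of 72 groups of 6 libraries, 1 library of a tested member lay far from the rest, by a check that chance meets in about 1 of 20 groups. IFNG 5 was low in Grin2a, at 2.92 CPM with the next library at 7.27, and in Grm5, at 163 with the next at 235. It was high in Cnih2, at 220 with the next at 187. Control 2 was low in Grm3, at 13.1 CPM with the next at 19.2.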

How the results depend on the processing

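Scaling moved the counts most. Under pan-neuronal scaling 5712 of all genes were higher and 279 lower, 8 members were higher and 1 lower, and 26 listed synaptic genes were higher and 9 lower. On totals without the genes that rose, 750 genes were lower, 2 members higher and 6 lower, and 19 listed genes lower. Against a fold of 1.2, 458 genes, 3 members (of 3.01% of genes lower) and 14 listed genes were lower and 0 members higher. Members higher numbered 0 on library totals, 2 with the filter of 1 CPM in 6 libraries, in DESeq2 and in limma-voom, and 3 without both Control 4 and IFNG 5. Leaving out each library gave 0 to 2 members higher, where 1924 to 2332 of all genes were higher. Members lower ran from 9 to 12 with each library left out, where 1047 to 1699 of all genes were lower.

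Under pan-neuronal scaling the sign turned for Gria3 (0.13), Gria4 (0.22), Grid1 (0.20), Grin1 (0.13), Grm5 (0.05), Grm7 (0.11), Grm8 (0.14), Cacng4 (0.04), Cacng5 (0.28), Cacng8 (0.13), Cnih2 (0.12), Neto1 (0.12), Camk2a (0.13), Nptxr (0.11) and Gnao1 (0.10). On totals without the genes that rose it turned for Gria4 (0.04), Grid1 (0.01) and Cacng5 (0.10). Values near 0 also changed sign. Grik2 stood at 0.00 with DESeq2 size factors, -0.04 on library totals, -0.01 with the replicate block and -0.02 in limma-voom. Grik5 stood at -0.01 and Cacng7 at -0.04 on library totals, and Cacng7 at 0.00 with DESeq2 size factors. Cacng5 stood at 0.02 with no filter, 0.00 with the filter of 1 CPM, 0.02 with the replicate block and 0.01 in limma-voom. Without both Control 4 and IFNG 5, Gria4 stood at 0.01, Grik1 at -0.01, Grik5 at -0.08, Cacng7 at -0.01, Slc17a7 at -0.05 and the ratio of Grik2 to Grik5 at 0.13. With each library left out, Grik2 ran from -0.09 to 0.09, Grik5 from -0.03 to 0.09, Cacng5 from -0.09 to 0.07, Cacng7 from -0.02 to 0.04 and Slc17a7 from -0.01 to 0.14. The ratio of Grin2a to Grin2b ran from -0.15 to 0.05, of Grik2 to Grik5 from -0.16 to 0.12 and of Neto2 to Neto1 from 0.37 to 0.51.

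Same-numbered samples deviated together with a correlation over 0.1 in 2 of 6 pairs, so the numbers were not taken as pairs. This check of single pairs cannot show sets of libraries. Control 1 to 3 lay apart from Control 4 to 6 in some members, though not in others such as Cacng7. Shisa9 held 175, 152 and 159 against 125, 125 and 123 CPM, and Cacng3 71, 69.4 and 65.3 against 92.9, 85 and 93.2 CPM. The GABAergic marker Vip split likewise in IFNG (6.25, 6.63 and 7.1 against 0.955, 1.03 and 1.91 CPM). What set these libraries apart was not tested. With the replicate block the same 12 members were lower and Shisa6 higher. In the exact sign-flip test of the block the smallest p is 0.0312. The differences of Gria1 to Gria2 (0.62), Neto2 to Neto1 (0.43) and Cnih3 to Cnih2 (-0.17) all had this p, adjusted 0.0729. A sole ratio at this p would have an adjusted p of 0.219. The adjusted p could thus hardly pass, and its miss does not show that blocking removed a difference. Without both Control 4 and IFNG 5 the differences of Gria1 to Gria2 and Neto2 to Neto1 were 0.48 and 0.47 (exact permutation, adjusted p = 0.0556). The cause of these changes was not tested, beyond fewer samples. At this depth Grm6, Grin2c and Grin3b allow no comparison or a weak one.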
